A study of Mus musculus with 42 samples.

Results

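Expression of 9 genes of retinoid metabolism, binding and response was followed across 42 cultures of mouse synovial fibroblasts, the cells that line and support the joint. They are Adh1, Dhrs3, Aldh1a1, Aldh1a2, Aldh1a3, Cyp26b1, Crabp1, Crabp2 and Rarb, measured by 11 of the 45101 probe sets on each array and counted as 9 of the 18194 genes tested. The group was chosen by measured values, because Cyp26b1, Adh1, Dhrs3 and Aldh1a1 vary over these samples. Those 4 genes are therefore described without tests, and p-values are given only for the other 5. The fibroblasts came from the arthritic joints of female BALB/c mice immunised with cartilage proteoglycan and the adjuvant DDA, and had been through up to 6 passages. The mice either were wild-type or lacked Tnfaip6, which encodes TSG-6, a secreted protein that binds hyaluronan. After a night in 0.5% serum the cultures were left untreated or were given, for 12 h, 5 ng/ml of TNFa, 200 ng/ml of lipopolysaccharide (LPS), 120 ug/ml of TSG-6 (mouse, recombinant), 24 ug/ml of hyaluronan (HA), or TSG-6 with HA at those doses. There were 5 untreated wild-type arrays and 2 for each wild-type treatment, against 8 untreated knockout-labelled arrays, 3 with TSG-6 and 4 for each other treatment. The values are log2 expression centred on each probe set's median over all arrays. They therefore give differences between arrays and no absolute level.

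Cells make retinoic acid from retinol (vitamin A) by successive oxidations. Alcohol and retinol dehydrogenases, of which Adh1 is one, form retinal, and the retinal dehydrogenases Aldh1a1, Aldh1a2 and Aldh1a3 form retinoic acid, whereas Dhrs3 turns retinal back into retinol. Cyp26b1 breaks retinoic acid down, Crabp1 and Crabp2 bind it in the cytoplasm, and Crabp2 passes it to nuclear receptors such as the product of Rarb, which is itself a well-known target of retinoic acid.

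Several features of the arrays bear on every comparison. Within each genotype the arrays fell into a pair of sets, called culture sets a and b here, which were found from other probe sets and are not in the labels. In wild-type arrays, all 32 probe sets that split every condition by a gap of at least 1 log2 unit gave the same division. In knockout-labelled arrays 12 of 14 did. The other 2 shared another division of the knockout-labelled arrays, which was not used. Set a holds wild-type untreated replicates 1 to 3 and replicate 1 of each treatment, and knockout-labelled untreated replicates 1 to 4 and treated replicates 1 and 2. In all, 15 arrays (5 wild-type and 10 knockout-labelled) had an 18S ribosomal RNA signal more than 1 log2 unit above its median. The Tnfaip6 probe set was not lower in untreated knockout-labelled than in wild-type arrays (difference 0.26 ± 0.16 SE, adjusted p = 0.22 in limma), so it gives no check of the labels. Fibroblast markers had array means over 11 markers of -0.79 to -0.31 in untreated wild-type and -0.20 to 0.21 in untreated knockout-labelled arrays. Of these 11, 5 were higher and 4 lower in untreated knockout-labelled arrays (adjusted p below 0.05 in limma). In that comparison 37.5% of all genes passed. Endothelial markers all differed in the same direction. All 8 were lower in the knockout-labelled arrays in all 6 conditions, with a median difference of -5.31 in untreated cultures. The mean of the 8 markers lay between 3.86 and 4.23 on untreated wild-type arrays and between -1.55 and 0.30 on untreated knockout-labelled arrays. Whether the wild-type cultures held more endothelial cells, or their cells more of these transcripts, cannot be told apart in bulk RNA, and genotype, cultures and this marker signal cannot be told apart in any genotype comparison. Chondrocyte markers went the other way, with 3 of 5 higher in knockout-labelled arrays in every condition. Within knockout-labelled cultures the median treatment difference of the endothelial markers was -0.17 to -0.03, while 2 of the 5 adipocyte markers measured fell with TNFa and with TSG-6 and HA. The adipocyte array mean was -0.37 to 0.46 untreated, -0.65 to 0.00 with TNFa and -0.55 to -0.11 with TSG-6 and HA, and the part of these markers in the results below was not tested.

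The genes that form retinal and retinoic acid, Adh1 and Aldh1a1, were high in untreated knockout-labelled cultures and lower after TNFa, TSG-6 and TSG-6 with HA. Adh1 encodes a cytosolic alcohol dehydrogenase that oxidises retinol. In the 8 untreated knockout-labelled arrays Adh1 lay between 0.69 and 2.23, with a median of 1.60. It was 0.30, -0.15, -0.17 and -0.55 with TNFa, 0.11, 0.19 and -0.08 with TSG-6, and 0.20, 0.25, -0.07 and -0.40 with TSG-6 and HA. None of these 11 arrays reached the lowest untreated array. With LPS, Adh1 was 0.92, 0.79, 0.97 and 0.07, and with HA alone 1.36, 0.82, 1.06 and 0.16, so that both groups overlapped the untreated range. The differences from untreated were -1.72 ± 0.26 with TNFa (3.29-fold lower), -1.50 ± 0.29 with TSG-6 and -1.58 ± 0.26 with TSG-6 and HA. With LPS and HA they were -0.89 ± 0.26 and -0.72 ± 0.26. The errors are standard errors of the fit over all arrays, as for every difference below. The 5 treatments share the same 8 untreated arrays as their reference.

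The wild-type Adh1 values were lower throughout. Untreated wild-type replicates 1 to 5 were at -0.32, -0.29, -0.20, -1.10 and -0.94, with the 2 lowest in set b. TNFa gave -1.61 and -1.77, LPS -1.41 and -1.44, TSG-6 -1.44 and -1.72, and TSG-6 with HA -1.30 and -1.97. All 8 of these arrays lay below every untreated wild-type array. HA alone gave -0.43 and -1.45, which overlapped. The differences were -1.12 ± 0.35 with TNFa, -0.86 ± 0.35 with LPS, -1.01 ± 0.35 with TSG-6 and -1.07 ± 0.35 with TSG-6 and HA, and each kept its sign within both culture sets. The difference with HA, -0.37 ± 0.35, was 0.14 without HA replicate 2 and -0.88 without HA replicate 1. Between genotypes, knockout-labelled arrays were higher by 2.15 ± 0.24 untreated (4.43-fold) and by 1.55 to 2.12 under treatment, with no overlap in any of the 6 conditions. The endothelial marker difference given above moved with this contrast, and its part in it was not tested.

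**Figure D1:**
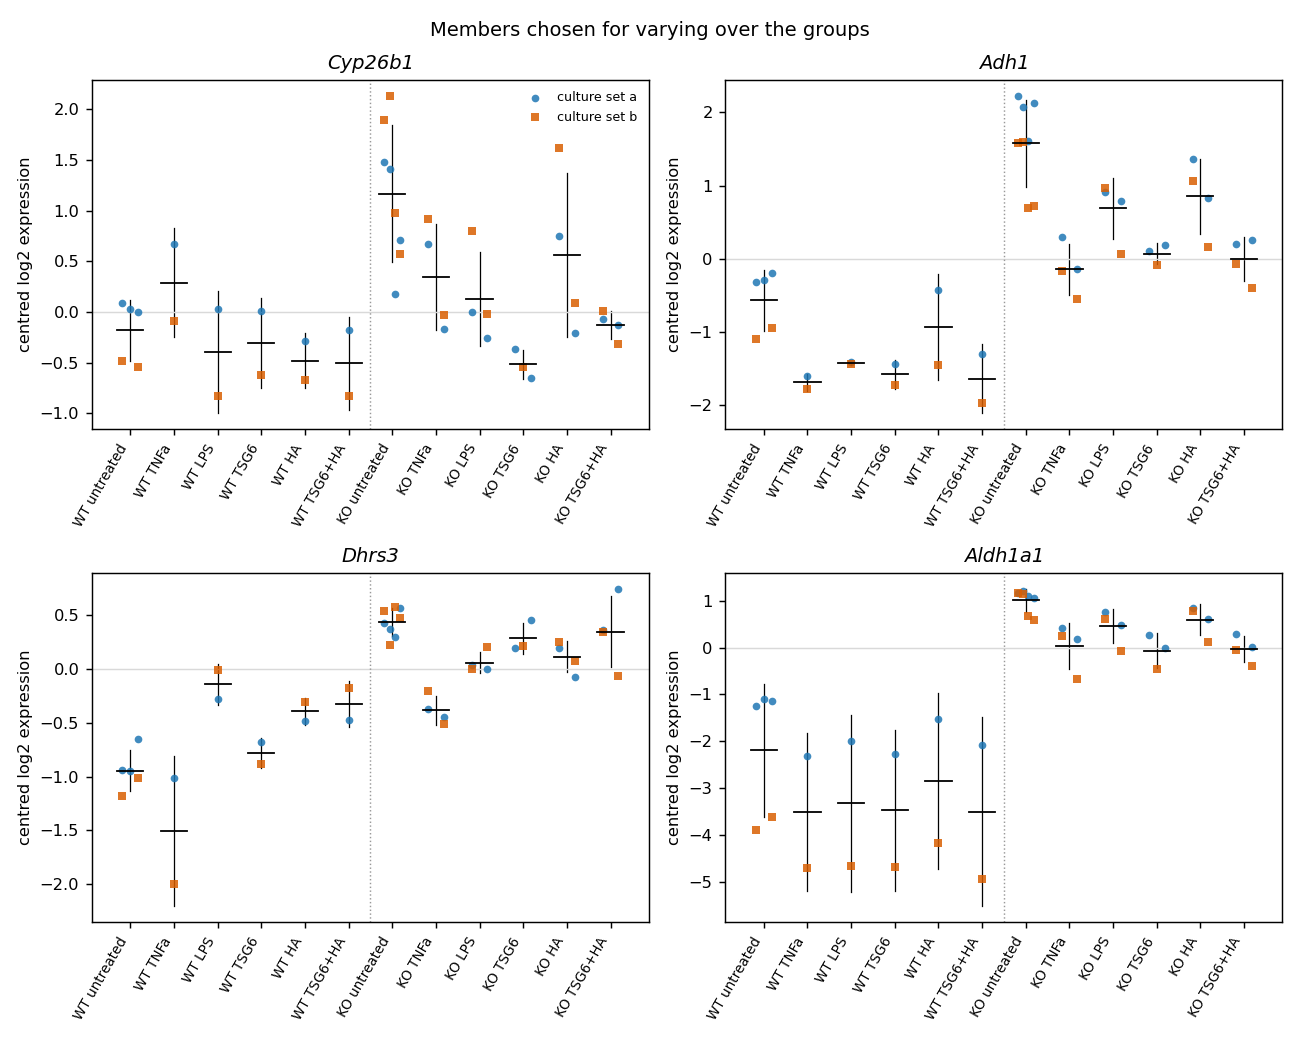
Centred log2 expression (y axis) of Cyp26b1, Adh1, Dhrs3 and Aldh1a1 on each of the 42 arrays, by genotype and treatment (x axis, WT wild-type, KO knockout-labelled). Points are arrays, circles culture set a and squares set b, with the group mean as a bar and ± SD as a line. The untreated knockout-labelled arrays lie between 0.69 and 2.23 for Adh1, above all arrays with TNFa, TSG-6 or TSG-6 with HA, and Aldh1a1 separates the wild-type sets.

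Aldh1a1, a retinal dehydrogenase, was likewise lower after TNFa, TSG-6 and TSG-6 with HA in the knockout-labelled cultures, over a smaller range. Its untreated values lay between 0.58 and 1.21, with a median of 1.12. They were 0.41, 0.18, 0.25 and -0.68 with TNFa, 0.27, -0.01 and -0.47 with TSG-6, and 0.30, 0.01, -0.06 and -0.39 with TSG-6 and HA. Again none of the 11 arrays reached the lowest untreated array, while LPS (0.76, 0.49, 0.62 and -0.06) and HA (0.85, 0.62, 0.78 and 0.13) overlapped it. The differences were -0.97 ± 0.55, -1.08 ± 0.61 and -1.05 ± 0.55 in the first 3 treatments, and -0.56 ± 0.55 and -0.42 ± 0.55 with LPS and HA, the last being -0.26 without HA replicate 4. These standard errors are wide because the fit shares 1 spread over all groups, and the wild-type arrays varied far more than the knockout-labelled ones.

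In wild-type cultures the level of Aldh1a1 depended on the culture set. The 3 untreated arrays of set a were at -1.25, -1.09 and -1.14, and the 2 of set b at -3.88 and -3.62. Replicate 1 of each treatment, in set a, lay between -2.32 and -1.52, and replicate 2, in set b, between -4.93 and -4.18. Every treated array was thus below the untreated arrays of its own set, although the groups overlapped when the sets were pooled. Within set a the differences were -1.16 with TNFa, -0.83 with LPS, -1.10 with TSG-6, -0.36 with HA and -0.92 with TSG-6 and HA, each ± 0.31. Within set b they were -0.96, -0.91, -0.94, -0.43 and -1.18 in the same order, each ± 0.33. Knockout-labelled arrays were higher than wild-type ones by 3.21 ± 0.51 untreated and by 3.41 to 3.78 under treatment, with no overlap. Without the set b array of the wild-type group the treated differences were 2.05 to 2.44.

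Dhrs3, the retinal reductase, was lower in knockout-labelled cultures after TNFa and LPS, but higher in wild-type cultures after LPS, HA and TSG-6 with HA. On the untreated knockout-labelled arrays Dhrs3 lay between 0.22 and 0.58. It was -0.37, -0.45, -0.20 and -0.51 with TNFa, and 0.04, 0.00, 0.00 and 0.20 with LPS, and neither group overlapped the untreated one. The differences were -0.82 ± 0.13 with TNFa and -0.37 ± 0.13 with LPS. HA (0.20, -0.07, 0.25 and 0.07), TSG-6 (0.19, 0.45 and 0.22) and TSG-6 with HA (0.36, 0.75, 0.35 and -0.06) overlapped the untreated range, with differences of -0.32 ± 0.13, -0.15 ± 0.14 and -0.09 ± 0.13. The TSG-6 value was -0.23 without TSG-6 replicate 2, and the last was 0.05 without replicate 4 of TSG-6 with HA and -0.22 without replicate 2.

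Untreated wild-type Dhrs3 values were -0.94, -0.94, -0.65, -1.18 and -1.02. LPS gave -0.27 and 0.00, HA -0.48 and -0.30, and TSG-6 with HA -0.47 and -0.17, all above every untreated array. The differences were 0.81 ± 0.18, 0.55 ± 0.18 and 0.62 ± 0.18. TSG-6 alone gave -0.68 and -0.88, and TNFa -1.01 and -2.00, and both overlapped the untreated arrays. The TNFa difference of -0.56 ± 0.18 was -0.06 without TNFa replicate 2, an array with a high 18S signal, and -1.06 without replicate 1. Dhrs3 was higher in knockout-labelled than in wild-type arrays by 1.38 ± 0.12 untreated and by 0.20 ± 0.18 with LPS, with no overlap in any condition. The LPS value was 0.07 without wild-type LPS replicate 1 and 0.34 without replicate 2. Its treatment differences with LPS and with HA thus ran in opposite directions in the genotypes, by -1.18 ± 0.22 and -0.88 ± 0.22 (knockout-labelled minus wild-type), which was not tested.

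Cyp26b1, the cytochrome P450 that inactivates retinoic acid, was lowest in knockout-labelled cultures that had received TSG-6. Its untreated values spread widely, from 0.18 to 2.13 with a median of 1.19. They were 1.48, 1.41, 1.89 and 2.13 in replicates 1, 2, 5 and 6. In replicates 3, 4, 7 and 8 they were 0.18, 0.71, 0.97 and 0.57. It was -0.36, -0.65 and -0.54 with TSG-6 and -0.07, -0.13, 0.01 and -0.31 with TSG-6 and HA, and none of these 7 arrays reached the untreated range. With TNFa it was 0.67, -0.17, 0.91 and -0.03, and with LPS 0.00, -0.26, 0.80 and -0.02. With HA it was 0.75, -0.21, 1.62 and 0.09. Each of these groups overlapped the untreated range. In each, replicates 1 and 3 were above replicates 2 and 4. Like the division of the untreated values, this cut across culture sets a and b, and what underlies it was not tested. The differences were -1.68 ± 0.33 with TSG-6 (3.21-fold lower), -1.29 ± 0.30 with TSG-6 and HA, -1.04 ± 0.30 with LPS, -0.82 ± 0.30 with TNFa and -0.61 ± 0.30 with HA. The last was -0.35 without HA replicate 2 and -0.96 without HA replicate 3. All 3 TSG-6 arrays also lay below the 4 arrays with TSG-6 and HA, a difference of 0.39 ± 0.38 between those groups.

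In wild-type cultures no treatment separated from untreated Cyp26b1 (0.09, 0.03, 0.00, -0.48 and -0.54). TNFa gave 0.67 and -0.09, LPS 0.03 and -0.82, TSG-6 0.01 and -0.62, HA -0.29 and -0.67, and TSG-6 with HA -0.18 and -0.83. In each pair the lower array was that of set b. With TNFa both arrays lay above the untreated arrays of their own set, by 0.63 ± 0.59 and 0.42 ± 0.62. The pooled difference of 0.47 ± 0.41 was 0.09 without TNFa replicate 1 and 0.85 without replicate 2. Untreated knockout-labelled arrays were 1.35 ± 0.28 above untreated wild-type arrays without overlap, and with HA 1.04 ± 0.43 above, again without overlap. With LPS they overlapped at a difference of 0.53 ± 0.43, which was 0.95 without wild-type LPS replicate 1, 0.10 without replicate 2 and 0.31 without knockout-labelled LPS replicate 3. The difference with HA was 0.69 without knockout-labelled HA replicate 3. With TNFa, TSG-6 and TSG-6 with HA the genotypes also overlapped, with differences of 0.05 ± 0.43, -0.21 ± 0.45 and 0.38 ± 0.43, and leaving out 1 array gave -0.33 to 0.44, -0.53 to 0.10 and 0.06 to 0.71. Over the 4 genes chosen for varying, all 20 treatment differences in knockout-labelled cultures were below 0 and 10 had no overlap. Because these values chose the genes, the count is only a description. The treatments also share the same untreated arrays, and the share of all genes without overlap is not given.

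**Figure D2:**
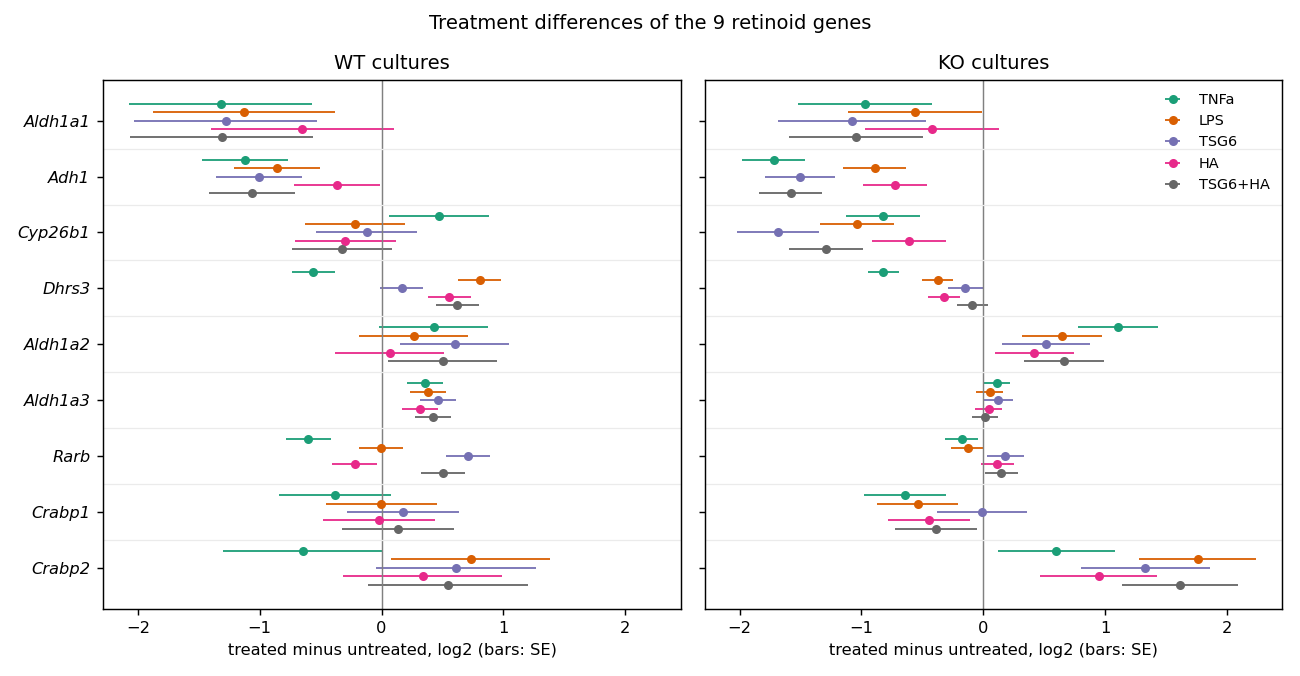
Treated minus untreated log2 expression (x axis) for the 9 genes (y axis) in wild-type (left) and knockout-labelled cultures (right). Points are differences of group means and bars are ± SE of the fit, coloured by treatment. In knockout-labelled cultures Adh1, Aldh1a1, Cyp26b1 and Dhrs3 lie left of 0 throughout, and Aldh1a2 with TNFa lies at 1.11.

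Of the 5 genes not chosen for varying, 1 passed the threshold (adjusted p below 0.05) with TNFa in knockout-labelled cultures, where 14.0% of all genes tested did. It was Aldh1a2, the retinal dehydrogenase that makes most retinoic acid in the embryo. Untreated knockout-labelled values lay between -0.85 and 0.13. The TNFa arrays were at 1.43, 0.23, 1.66 and 0.18, all above the untreated ones. Aldh1a2 rose by 1.11 ± 0.33 (2.15-fold, adjusted p = 0.0182 in limma), and the call was lost without TNFa replicate 1 (0.92, adjusted p = 0.108) or replicate 3 (0.84, adjusted p = 0.134). With LPS (1.05, -0.32, 1.39 and -0.43), HA (0.69, -0.27, 0.66 and -0.30) and TSG-6 with HA (0.99, -0.10, 1.17 and -0.33), replicates 1 and 3 were likewise high and replicates 2 and 4 low. TSG-6 alone gave 0.70, 0.30 and -0.13. The differences were 0.65 ± 0.33, 0.42 ± 0.33, 0.66 ± 0.33 and 0.52 ± 0.36 in that order, and none passed (adjusted p from 0.23 to 0.921).

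Among treated knockout-labelled arrays, the low ones for Aldh1a2 were largely those with a high 18S signal. The match was incomplete. Untreated replicates 3 and 4 (-0.43 and -0.50) and HA replicate 2 (-0.27) were low without a high 18S signal. TSG-6 replicate 2 (0.30) had one and was not low. The untreated arrays also followed the division seen in Cyp26b1. Replicates 1, 2, 5 and 6 lay between -0.06 and 0.13, and replicates 3, 4, 7 and 8 between -0.85 and -0.24. As with Cyp26b1, replicates 1 and 3 were above 2 and 4 with TNFa, LPS and HA. What underlies this was not tested. Replicates 2 and 4 with TNFa, LPS and TSG-6 with HA, and replicate 4 with HA, exceeded 1 log2 unit of 18S, and over the 42 arrays r between Aldh1a2 and 18S was -0.51. Without the 15 high-18S arrays Aldh1a2 rose by 1.67 with TNFa (adjusted p = 1.09e-04), by 1.34 with LPS (adjusted p = 0.00933) and by 1.21 with TSG-6 and HA (adjusted p = 0.00481). Leaving out the high-18S arrays removed replicates 2 and 4 of these treatments. It kept untreated replicates 3 and 4, so low arrays were not removed evenly. The part of 18S signal in these values was otherwise not tested. In wild-type cultures Aldh1a2 was -0.56, -0.10, -0.23, -0.38 and -0.44 untreated, 0.19 and -0.01 with TNFa and 0.40 and 0.11 with TSG-6. Both treated pairs lay above the untreated arrays, but the differences of 0.43 ± 0.45 and 0.60 ± 0.45 did not pass (adjusted p = 0.965 and 1.00). LPS, HA and TSG-6 with HA overlapped the untreated arrays. The genotypes did not differ past the threshold in Aldh1a2 in any condition (differences 0.03 to 0.79, adjusted p from 0.256 to 0.983). Without the high-18S arrays the difference with TNFa was 1.36. That filter leaves 1 wild-type TNFa array and knockout-labelled TNFa replicates 1 and 3, the higher ones of that group, so no call is given.

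Aldh1a3, the remaining retinal dehydrogenase of the group, was lower in knockout-labelled arrays in all 6 conditions by the probe set with the widest spread. Wild-type arrays lay between 0.06 and 0.39 untreated and between 0.40 and 0.84 treated, and knockout-labelled arrays between -0.41 and 0.39 over all conditions. The difference was -0.38 ± 0.10 untreated (adjusted p = 0.00217), where the groups overlapped, and -0.63 ± 0.15 with TNFa, -0.71 ± 0.15 with LPS, -0.72 ± 0.16 with TSG-6, -0.65 ± 0.15 with HA and -0.79 ± 0.15 with TSG-6 and HA, where they did not. The TNFa call was lost without wild-type TNFa replicate 2 (-0.45, adjusted p = 0.127), and the TSG-6 call without wild-type TSG-6 replicate 2 (-0.56, adjusted p = 0.0688). The 2 other probe sets of Aldh1a3 passed in no condition. Tested on their own they gave untreated differences of -0.22 ± 0.11 (adjusted p = 0.121) and 0.09 ± 0.11 (adjusted p = 0.597). By the probe set with the widest spread, all 10 treated wild-type arrays lay above every untreated array. The 5 treatments differed from untreated by 0.31 to 0.46 in the means, with adjusted p-values from 0.281 to 1.00. By the 2 other probe sets these differences were -0.14 to 0.12 and -0.03 to 0.18.

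Rarb, the gene of retinoic acid receptor beta, had the genotype difference with the smallest adjusted p of the 5 tested genes in untreated cultures. Untreated wild-type arrays were at 0.52, 0.90, 0.94, 1.14 and 1.07, and the 8 untreated knockout-labelled arrays between -0.36 and 0.00. Rarb was 2.17-fold lower in the knockout-labelled arrays (difference -1.12 ± 0.13, adjusted p = 2.87e-09). It was lower under every treatment as well, with differences of -0.69 ± 0.19 with TNFa (adjusted p = 0.00585), -1.24 ± 0.19 with LPS, -1.65 ± 0.20 with TSG-6, -0.78 ± 0.19 with HA and -1.48 ± 0.19 with TSG-6 and HA, without overlap. The TNFa call was lost without wild-type TNFa replicate 2 (-0.57, adjusted p = 0.131) and without the high-18S arrays (-0.53, adjusted p = 0.154), which leaves 1 wild-type TNFa array. In the same contrasts all 8 endothelial markers were lower too, and their part in the Rarb difference was not tested.

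Within wild-type cultures Rarb was 0.18 and 0.44 with TNFa, below every untreated array, and 1.35 and 1.90 with TSG-6, above every one. Neither difference passed the threshold, at -0.60 ± 0.18 with TNFa (adjusted p = 0.0816) and 0.71 ± 0.18 with TSG-6 (adjusted p = 0.0902). With the culture set as a block both passed, at adjusted p = 0.00991 and 0.0176. TSG-6 with HA gave 1.03 and 1.81 (difference 0.50 ± 0.18, adjusted p = 0.321), while LPS (0.69 and 1.13) and HA (0.79 and 0.60) lay among the untreated arrays. In knockout-labelled cultures Rarb stayed between -0.59 and 0.25, and no treatment passed (adjusted p from 0.472 to 0.958). The difference between genotypes in the TSG-6 response was -0.53, with a 95% interval of -1.01 to -0.05 and an adjusted p of 0.999.

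The promoter of Rarb is shown because a retinoic acid response element there is the textbook site through which retinoic acid acts on this gene. In the RefSeq promoters of GRCm38.p6, 7 of the 9 genes were matched, with 10 windows. The 250 bases before the annotated Rarb start, on the minus strand at chr14:16575477-16575726, read 5′ to 3′ as follows, with capitals marking a direct repeat of receptor half-sites.

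Rarb: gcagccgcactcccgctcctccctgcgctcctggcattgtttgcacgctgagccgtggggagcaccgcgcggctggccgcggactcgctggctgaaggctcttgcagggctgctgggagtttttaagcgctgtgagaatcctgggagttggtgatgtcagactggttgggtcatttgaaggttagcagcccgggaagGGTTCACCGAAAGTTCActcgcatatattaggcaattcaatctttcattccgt

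The repeat lies 53 to 37 bases before the start. The half-sites searched, on both strands and in any pairing, were AGGTCA and its variants, namely AGTTCA as well as GGGTCA and also GGTTCA, spaced by 5, 2 or 1 bases. Of 32851 promoters in the table, 32 (0.0974%) held such a repeat spaced by 5 bases, 88 (0.268%) one spaced by 2 and 73 (0.222%) one spaced by 1. Among the 10 windows of the group, the Rarb window held the spacing of 5 and none held the others. This start lies 506855 bases from the outermost annotated start of Rarb, and the single Rarb probe set does not tell transcripts from different starts apart. A match describes the letters of the window and not binding.

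Crabp1 and Crabp2 bind retinoic acid in the cytoplasm, and they differed. Crabp2 was higher in knockout-labelled arrays and highest in those of set b after treatment. Untreated knockout-labelled values lay between -0.34 and 0.74, with a median of 0.00. LPS gave 0.86 and 0.69 in set a and 2.85 and 3.13 in set b. TSG-6 with HA gave 0.30 and 0.88 in set a and 2.23 and 3.53 in set b, and TSG-6 alone 0.63, 0.82 and, in set b, 2.89. HA gave -0.10, 0.64, 1.62 and 2.11, and TNFa -0.11, 0.39, 0.94 and 1.66, with the last 2 of each in set b. Each of these groups overlapped the untreated range through its set a arrays, and no set b array did.

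Crabp2 rose with LPS by 1.76 ± 0.48 (adjusted p = 0.0459) and with TSG-6 and HA by 1.62 ± 0.48 (adjusted p = 0.025), and it was 1 of the 5 tested genes in each, against 1.79% and 9.94% of all genes. With TSG-6 alone the difference was 1.33 ± 0.53 (adjusted p = 0.172), with HA 0.95 ± 0.48 (adjusted p = 0.739) and with TNFa 0.60 ± 0.48 (adjusted p = 0.499). With TSG-6 and with HA alone 0 of the 5 genes passed, against 4.75% and 0.643% of all genes, while 1 (Crabp2) and 0 had an unadjusted p under 0.05 in limma. Within set a the differences were 0.80 with LPS, 0.76 with TSG-6 and 0.62 with TSG-6 and HA, each ± 0.32. Within set b they were 2.72 ± 0.32, 2.62 ± 0.42 and 2.61 ± 0.32. With the set as a block all 3 passed, at adjusted p = 1.93e-04, 0.00173 and 1.91e-04. The test of the difference between the sets, adjusted over all genes, did not pass in LPS (adjusted p = 0.919, 0.0% of all genes called), TSG-6 (0.253, 0.0165%) or TSG-6 with HA (0.358, 0.0%).

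The Crabp2 calls rested on few arrays. The LPS call was lost without LPS replicate 3 (1.44, adjusted p = 0.263) or 4 (1.35, adjusted p = 0.294), both of set b. It was also lost without any of untreated replicates 1 to 6 or 8, at differences of 1.70 to 1.82 and adjusted p from 0.0533 to 0.0736. The call for TSG-6 with HA was lost without replicate 3 (1.45, adjusted p = 0.099) or 4 (1.02, adjusted p = 0.203) of that group. Without the high-18S arrays the differences were 1.90 with LPS (adjusted p = 0.195) and 1.31 with TSG-6 and HA (adjusted p = 0.218).

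**Figure D3:**
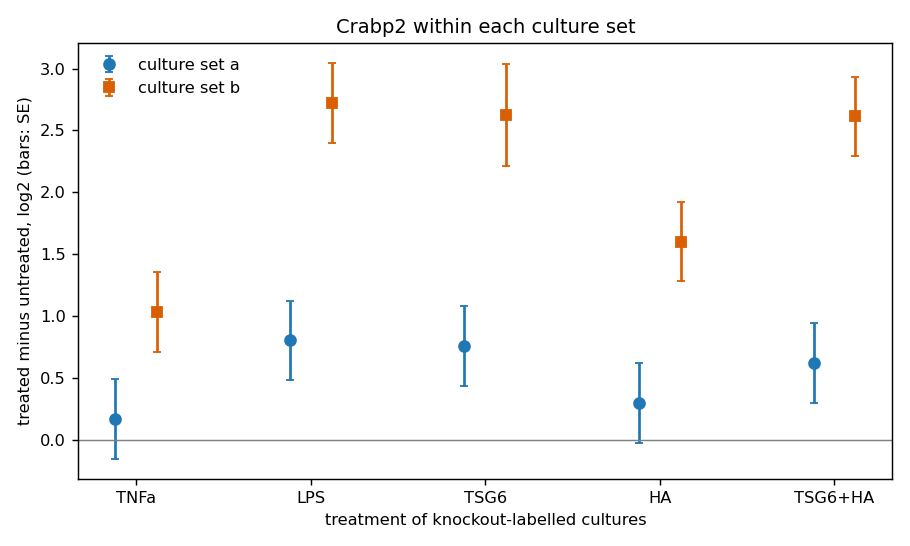
Treated minus untreated Crabp2 expression in knockout-labelled cultures (y axis, log2) for each treatment (x axis), within culture set a (circles) and set b (squares), with bars of ± SE. The LPS difference is 0.80 in set a and 2.72 in set b, and set b lies above set a for each of the 5 treatments.

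Wild-type Crabp2 was -1.38, -1.50, -1.05, -0.83 and -0.75 untreated. LPS gave -0.18 and -0.55, TSG-6 -0.62 and -0.36, and TSG-6 with HA -0.39 and -0.72, all above the untreated arrays, while TNFa gave -1.68 and -1.81, below them. None of these differences passed (adjusted p from 0.918 to 1.00). Crabp2 was higher in knockout-labelled than in wild-type arrays in 5 of 6 conditions, by 1.22 ± 0.45 untreated (adjusted p = 0.0284), 2.47 ± 0.68 with TNFa (adjusted p = 0.00576), 2.25 ± 0.68 with LPS (adjusted p = 0.012), 1.83 ± 0.68 with HA (adjusted p = 0.0463) and 2.29 ± 0.68 with TSG-6 and HA (adjusted p = 0.0119). With TSG-6 the difference was 1.94 ± 0.71 (adjusted p = 0.0536), and it passed with the culture set as a random block (adjusted p = 0.00779), as did the other 5. The genotypes did not overlap in any condition. Without the high-18S arrays these differences were 1.15 to 2.25. The untreated call was then lost (1.15), and the difference with TSG-6 alone passed (adjusted p = 0.0283 in limma). With TNFa, LPS, HA and TSG-6 with HA that filter leaves 1 wild-type array each, so no call is given for these.

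Leaving out 1 array ended several of these Crabp2 genotype calls. The untreated call was lost without wild-type untreated replicate 1 (1.15, adjusted p = 0.0641) or 2 (1.12, adjusted p = 0.0721) or knockout-labelled untreated replicate 7 (1.13, adjusted p = 0.0532). The TNFa call was lost without wild-type TNFa replicate 2 (2.40, adjusted p = 0.0621). The LPS call was lost without either wild-type LPS array (2.44 and 2.07, adjusted p = 0.0512 and 0.133) or knockout-labelled LPS replicate 4 (1.83, adjusted p = 0.0534). The HA call was lost without either wild-type HA array (1.74 and 1.93, adjusted p = 0.19 and 0.173) or knockout-labelled HA replicate 3 (1.65, adjusted p = 0.106) or 4 (1.48, adjusted p = 0.142). The call with TSG-6 and HA was lost without replicate 2 of the wild-type group (2.12, adjusted p = 0.132) or replicate 4 of the knockout-labelled group (1.69, adjusted p = 0.0644).

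Crabp1 passed in none of the 25 comparisons. It lay between -0.88 and 1.46 on untreated knockout-labelled arrays, and untreated wild-type arrays were at -0.84, -0.68, -0.47, 0.03 and 0.12. Untreated knockout-labelled replicates 3, 4, 7 and 8 were at 0.82 or above and the others at 0.27 or below. This is the division seen in Cyp26b1, in reverse. The untreated difference between genotypes was 0.76 ± 0.31 (adjusted p = 0.0519, with 0.0309 when the culture set was a block and 0.117 when it was a random block). All 5 treatment differences in knockout-labelled cultures lay between -0.64 and -0.01, with overlap in each.

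**Figure D4:**
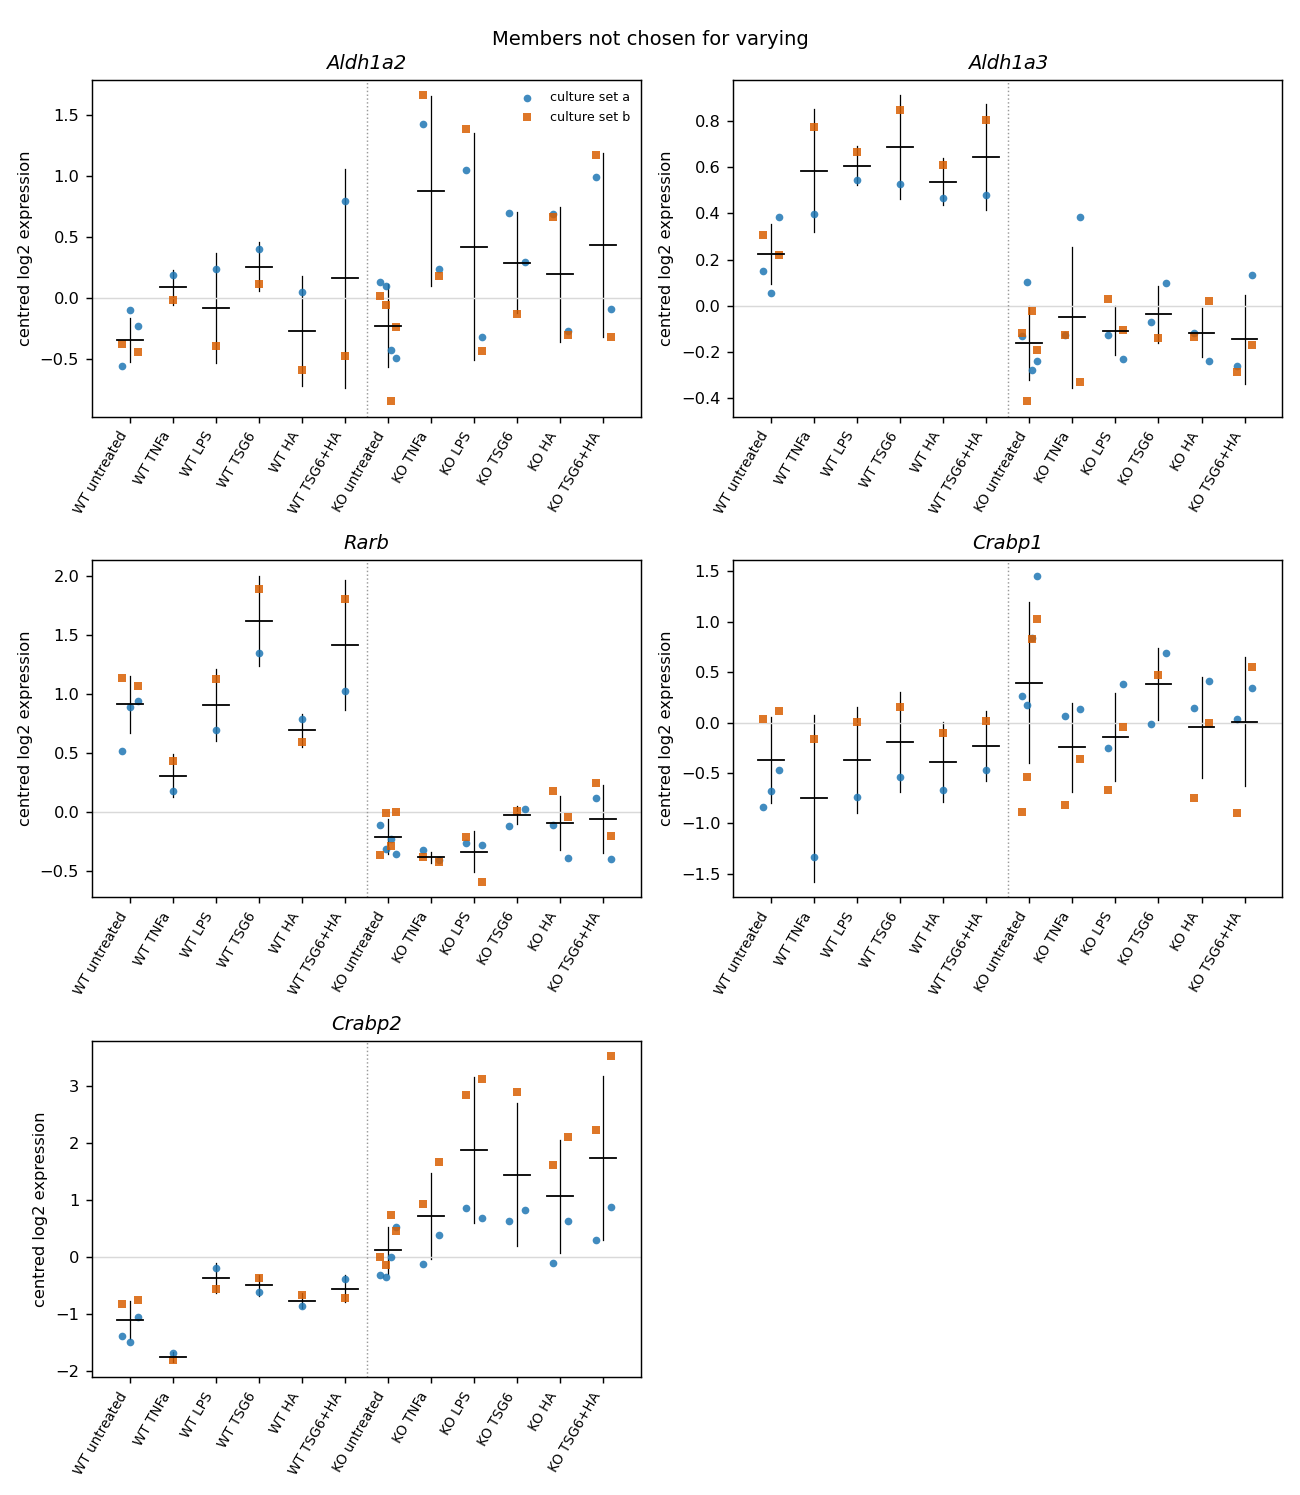
Centred log2 expression (y axis) of Aldh1a2, Aldh1a3, Rarb, Crabp1 and Crabp2 on each of the 42 arrays, by genotype and treatment (x axis, WT wild-type, KO knockout-labelled). Points are arrays, circles culture set a and squares set b, with the group mean as a bar and ± SD as a line. Rarb lies between 0.52 and 1.14 in untreated wild-type arrays and between -0.36 and 0.00 in untreated knockout-labelled arrays.

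Read over the 5 tested genes, no wild-type treatment had a gene past the threshold. The share of all genes past it was 2.56% with TNFa, 1.19% with LPS, 0.429% with TSG-6, 0.132% with HA and 0.802% with TSG-6 and HA. Of the 25 wild-type tests in limma, 8 had an unadjusted p under 0.05. They were Aldh1a3 under all 5 treatments and Rarb with TNFa, TSG-6 and TSG-6 with HA. The treatments share the same untreated arrays, so these tests are not independent. Between genotypes, 3 of the 5 genes passed untreated (37.5% of all genes), with TNFa (23.5%), with LPS (24.0%), with HA (23.3%) and with TSG-6 and HA (21.6%), and 2 with TSG-6 (18.9%). No tested gene differed between genotypes in a treatment response. The shares of all genes were 0.808% for TNFa, 0.214% for LPS, 0.0824% for TSG-6, 0.044% for HA and 0.181% for TSG-6 with HA, and 2 of the 25 tests had an unadjusted p under 0.05. The 95% intervals were wide, as for Crabp2 with LPS, where they ran from -0.62 to 2.68. TSG-6 with HA differed from TSG-6 alone in none of the 5 genes, against 0.0% of all genes in both genotypes, and from HA alone in none, against 0.0055% in wild-type and 1.79% in knockout-labelled cultures. Of those 20 tests, 1 (Rarb, wild-type, against HA) had an unadjusted p under 0.05 in limma. No share of all genes at that unadjusted threshold is given, so the unadjusted counts, here and for listed genes, have no background beside them.

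The 9 genes did not move as 1 block. Over the 27 knockout-labelled arrays, r was 0.93 between Aldh1a1 and Adh1, 0.73 between Aldh1a1 and Cyp26b1 and 0.68 between Adh1 and Cyp26b1. It was -0.69 between Aldh1a1 and Crabp2 and -0.64 between Aldh1a2 and Crabp1. Over the 15 wild-type arrays r was 0.77 between Aldh1a1 and Adh1 and -0.90 between Cyp26b1 and Crabp1. The arrays share treatments, culture sets and 18S signal, so these are descriptions. The genes most like each of the 4 chosen genes over all 42 arrays, by Pearson r, were Itm2a (0.98), Prelp (0.98) and Gpx3 (0.97) for Aldh1a1, Pdk4 (0.96), Zhx3 (0.95) and Celf5 (0.94) for Adh1, Rgs4 (0.87), Gas1 (0.87) and Pmp22 (0.85) for Dhrs3, and Ccn3 (0.81), Sult1a1 (0.80) and Myh2 (0.80) for Cyp26b1. Over the 12 group means the r of these genes lay between 0.74 and 1.00. Within the 27 knockout-labelled arrays it was 0.65 to 0.69 for the genes like Aldh1a1, 0.87 to 0.90 for those like Adh1, 0.54 to 0.78 for those like Dhrs3 and 0.80 to 0.84 for those like Cyp26b1. Within the 15 wild-type arrays it was 0.95 to 0.97, 0.84 to 0.92, 0.56 to 0.68 and 0.29 to 0.82 in the same order, the lowest being Myh2.

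Other genes of the retinoid pathway were followed as 58 listed genes, of which 52 were measured by a probe set of 1 gene. In untreated cultures 14 were higher and 7 lower in knockout-labelled than in wild-type arrays, or 40.4% against 37.5% of all genes, and the median difference was 0.08 against 0.03 for all genes. Rbp4, the carrier of retinol in blood, was 3.35 ± 0.27 higher (adjusted p = 8.63e-13), and Aldh1a7, a close relative of Aldh1a1, 3.32 ± 0.45 higher (adjusted p = 1.39e-07). Rdh10, which oxidises retinol to retinal, was 1.02 ± 0.21 higher, and Meis1, a homeobox target of retinoic acid, 0.81 ± 0.14 higher. Fabp5, which can carry retinoic acid to another nuclear receptor, was lower (difference -3.50 ± 0.26, adjusted p = 1.47e-13), as was Meis2 (-0.87 ± 0.17). Among the 19 measured oxidoreductases 8 were higher and 3 lower. Of these genes, Rbp4, Rdh10 and Aldh1a7 were higher and Fabp5 lower in all 6 conditions, as they were with the culture set as a random block. Rxra, a partner of the retinoic acid receptors, was higher in all 6 conditions and in 5 with the random block. Under treatment the Rdh10 calls were each lost without wild-type replicate 2 (0.41 to 0.68, adjusted p from 0.363 to 0.611), and that with LPS also without any 1 of the knockout-labelled LPS arrays. The Rxra calls were lost without either wild-type array with TNFa (0.37 and 0.36) and with TSG-6 and HA (0.39 and 0.52), without knockout-labelled TNFa replicate 1, 3 or 4 (0.37, 0.31 and 0.36), and without wild-type TSG-6 replicate 2 (0.41). Those of Aldh1a7 with TNFa and with TSG-6 and HA were lost without wild-type replicate 1 (2.19, adjusted p = 0.0846) and replicate 2 (2.17, adjusted p = 0.121).

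**Figure D5:**
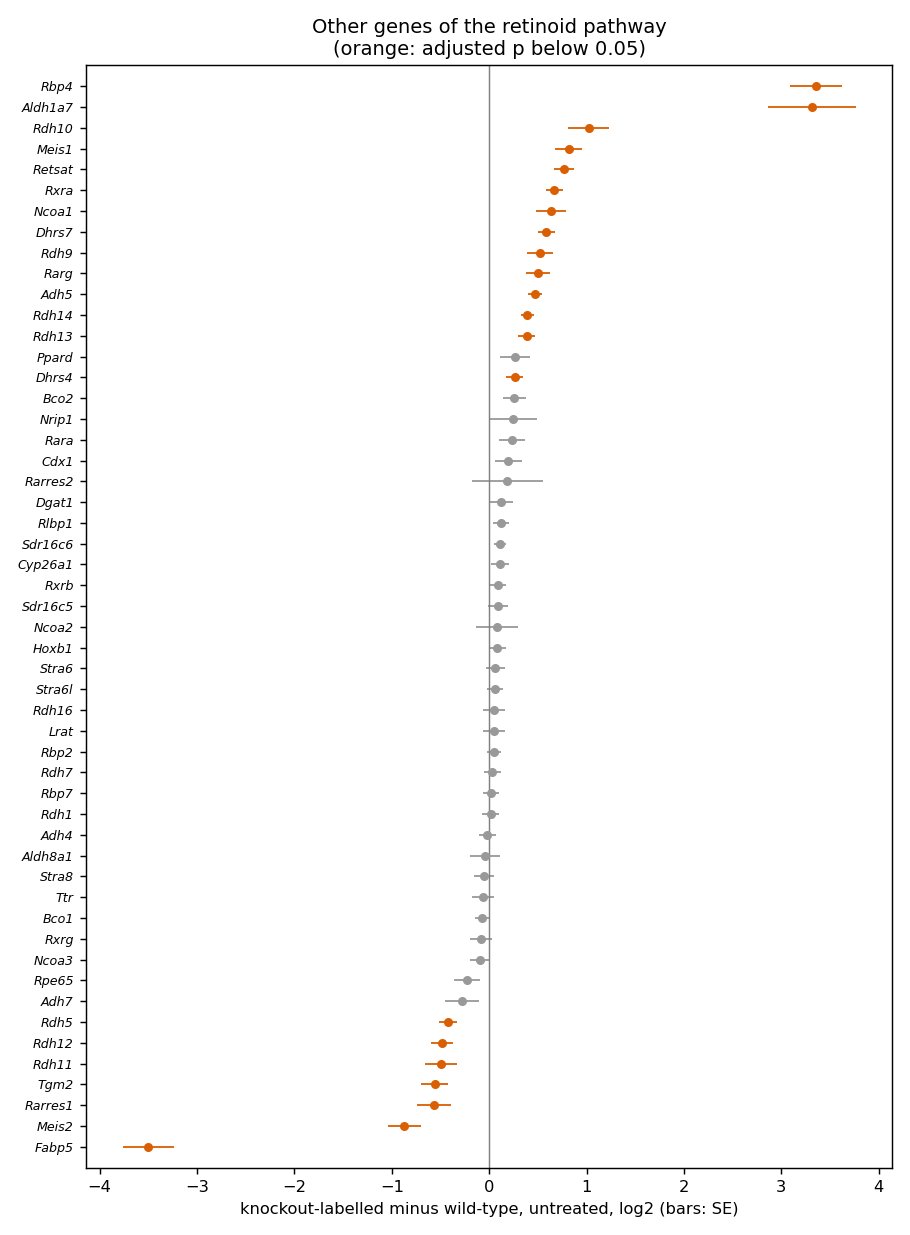
Knockout-labelled minus wild-type log2 expression in untreated cultures (x axis) for the 52 other genes of the retinoid pathway (y axis, ordered by difference). Points are differences of group means with bars of ± SE, orange where the adjusted p was below 0.05. The 14 orange points to the right of 0 are led by Rbp4 at 3.35, and the 7 to the left by Fabp5 at -3.50.

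With TNFa in knockout-labelled cultures 5 listed genes rose and 3 fell, or 15.4% against 14.0% of all genes. Rarres2, which encodes the chemoattractant chemerin, rose by 2.11 ± 0.39 (adjusted p = 1.55e-04), and Tgm2, a transglutaminase induced by retinoic acid, by 1.67 ± 0.15 (adjusted p = 6.13e-11). The retinol dehydrogenase Rdh11 rose by 0.76 ± 0.18. Aldh1a7 fell by 1.69 ± 0.48 (adjusted p = 0.0133), Rdh9 by 0.77 ± 0.14 and the receptor Rxra by 0.61 ± 0.10. The Aldh1a7 call was lost without TNFa replicate 3 (-1.41, adjusted p = 0.0848) or 4 (-1.34, adjusted p = 0.088). Aldh1a7 lies next to Aldh1a1 in the genome and the genes are close in sequence, so their probe sets may share signal. In knockout-labelled arrays r between them was 0.71.

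With TSG-6 and HA in knockout-labelled cultures 3 listed genes rose and 6 fell, or 17.3% against 9.94% of all genes. Aldh1a7 fell by 1.72 ± 0.48, Rdh9 by 0.86 ± 0.14, the alcohol dehydrogenase Adh7 by 0.70 ± 0.19 and the retinol saturase Retsat by 0.54 ± 0.12, while Tgm2 rose by 0.45 ± 0.15 and Rdh12 by 0.39 ± 0.12. The Aldh1a7 call was lost without replicate 3 (-1.40, adjusted p = 0.106) or 4 (-1.53, adjusted p = 0.0662) of that group, and the Adh7 call without replicate 2 (-0.58, adjusted p = 0.0778). The Tgm2 call was lost without any 1 treated array or without untreated replicate 3, 5, 6, 7 or 8 (0.38 to 0.49, adjusted p from 0.0608 to 0.186). That of Rdh12 was lost without treated replicate 1 or 2 or untreated replicate 3, 4 or 7 (0.31 to 0.38, adjusted p from 0.0566 to 0.182). With LPS 1 listed gene passed (1.92% against 1.79% of all genes), Rarres2 (1.48 ± 0.39, adjusted p = 0.0385), and it did not without LPS replicate 1, 3 or 4 or untreated replicate 2, 3, 4 or 8 (1.18 to 1.54, adjusted p from 0.0505 to 0.254). With TSG-6 alone 1 passed (1.92% against 4.75% of all genes), Rdh9 (-0.53 ± 0.16, adjusted p = 0.0426), and it did not without TSG-6 replicate 1 or 2 or untreated replicates 4, 5, 6 or 7 (-0.53 to -0.43, adjusted p from 0.0597 to 0.281). With HA none passed, against 0.643% of all genes, while 3 had an unadjusted p under 0.05 in limma. With the culture set as a block the counts were 5 with LPS, 7 with TSG-6 and 3 with HA, and as a random block 4, 4 and 1. With TNFa they were 14 and 12. Shares of all genes under these blocks are not given here. No count of listed genes with a block can therefore be set against the shares above. In wild-type cultures no listed gene passed with TSG-6, HA or TSG-6 with HA, while 1, 1 and 6 had an unadjusted p under 0.05 in limma. With the culture set as a block 2 passed with TSG-6 and HA, and as a random block 1 did. Tgm2 was the gene past the threshold with TNFa (1.92% against 2.56% of all genes) and 1 of 2 with LPS (3.85% against 1.19%), and with the set as a block 4 passed with TNFa. Tgm2 rose with TNFa (1.03 ± 0.20, adjusted p = 0.00112) and LPS (0.95 ± 0.20, adjusted p = 0.00576). Both were lost without replicate 1 of the treatment (0.88 and 0.76, adjusted p = 0.077 and 0.398). Fabp5 fell by 1.52 ± 0.38 with LPS (adjusted p = 0.0325, a call lost without either LPS array, at -1.09 and -1.95, or without untreated replicate 3, 4 or 5, at adjusted p from 0.0582 to 0.0674).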

How the data were processed

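Each of the 42 cultures was hybridised to 1 Affymetrix array in a single colour. The deposited table holds log2 expression values made by the authors with RMA, per the submitters' processing notes, and centred on the median of each probe set. The log base was inferred to be 2. A version of RMA and a genome build are not given in the sources used here. Probe sets listed with 1 gene (34958) were used, and those with several genes (932) or none (9211) were not. Each gene was taken by its probe set with the largest SD, avoiding probe sets correlating above 0.7 with 18S. All arrays were fitted in limma 3.58.1 (R 4.3.3) with 12 group means and 30 residual degrees of freedom, for 25 comparisons. P-values were adjusted by Benjamini-Hochberg over 18194 genes, and reflect the variation among these cultures alone, as no label ties each culture to its own animal. The fit was tested on simulated data with independent errors of equal spread in all groups. There it recovered 94% of 2-fold changes with TNFa in knockout-labelled and 77.6% in wild-type cultures. Culture sets, 18S differences and unequal spreads were not simulated, so the simulation cannot check calls that these affect. The number of arrays limits the precision.

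Genes named are the 9 members, up to 6 listed genes past the threshold with the largest difference in each comparison described, and the 3 genes most correlated with each member that varied. Genes whose names are given as the whole of a small count, or whose calls rested on 1 array, were named after their values were seen. The members and lists were chosen with earlier results of these data known. Alternatives tried were another normalization, other probe set rules and filters, other fits, blocks, sets of arrays and leaving out each array.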

Additional observations from a re-analysis of the deposited data

Results flagged for a closer look

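Dhrs3 on the fourth knockout-labelled LPS array, at 0.20, stood apart from the other 3 arrays, the next of which was at 0.04. Its gap to them took 0.835 of the range, just over the critical value of 0.829. It was 1 of 54 groups checked, and chance alone gives about 1 in 20.

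The response to TNFa differed between genotypes in 1 listed gene, the retinol dehydrogenase Rdh12, by 0.88 ± 0.21 (knockout-labelled minus wild-type, adjusted p = 0.0263 in limma). That is 1.92% of the 52 listed genes, against 0.808% of all genes. The call was lost without wild-type untreated replicate 4 (0.82), wild-type TNFa replicate 1 (0.90) or 2 (0.85), or knockout-labelled TNFa replicate 1 (0.77).

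For 3 responses, the arrays of each genotype all moved in opposite directions from their untreated means. Dhrs3 with LPS differed by -1.18, from 0.81 in wild-type to -0.37 in knockout-labelled cultures, and Dhrs3 with HA by -0.88, from 0.55 to -0.32. Cyp26b1 with TNFa differed by -1.29, from 0.47 to -0.82, and its wild-type value was 0.09 without TNFa replicate 1 and 0.85 without replicate 2. These differences were not tested, because their genes were chosen for varying.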

How the results depend on the processing

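No alternative reversed the direction of a called difference, but several ended calls of the 5 tested genes. Calls were lost in 5 cases with only the groups compared, and in 3 with the mean of a gene's probe sets. With every probe set tested 2 were lost, and with quantile normalization 4 were lost and 1 gained. Others were lost without the high-18S arrays, which leaves some wild-type groups 1 array. Not all of these calls are named here. Quantile normalization of the centred values moved Aldh1a1 with TNFa to -1.51 and with TSG-6 to -1.60, Cyp26b1 with TSG-6 to -2.63 and between untreated genotypes to 2.01, and Adh1 with TNFa to -2.76, with TSG-6 to -2.49 and between genotypes to 3.03. The cause was not tested. It also ended the calls of Aldh1a2 with TNFa (1.29, adjusted p = 0.065) and of Crabp2 between untreated genotypes (0.95, adjusted p = 0.303). Within culture sets, with fewer arrays, Aldh1a2 with TNFa was 1.01 in set a and 1.20 in set b, and Crabp2 in set a was 0.80 with LPS and 0.62 with TSG-6 and HA, none past the threshold. The Crabp2 LPS call was also lost with every probe set tested (1.76, adjusted p = 0.0543) or only the groups compared (1.76, adjusted p = 0.0512), and without the high-18S arrays (1.90). Without those arrays Crabp2 lost its calls with TSG-6 and HA (1.31) and between untreated genotypes (1.15, adjusted p = 0.0567) as well. Leaving out 1 array at a time gave 0.84 to 1.34 for Aldh1a2 with TNFa. For Crabp2 it gave 1.35 to 2.16 with LPS, 1.02 to 2.09 with TSG-6 and HA and 1.12 to 1.31 between untreated genotypes. The number of listed genes past the threshold with TNFa, 8, was 14 with the culture set as a block, where the share of all genes is not given.

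By replicate number, untreated and treated arrays were not paired: same-numbered ones correlated at -0.26 to 0.59 in knockout-labelled and -0.65 to 0.44 in wild-type cultures. Same-numbered treated arrays correlated with each other at -0.14 to 0.72 (median 0.47) and at 0.41 to 0.69, and they share a culture set. A replicate block joins untreated arrays of set a to treated arrays of set b, in wild-type replicate 2 and knockout-labelled replicates 3 and 4. Its calls are therefore given as a description and are no check of the others. With the replicate block, Adh1 with TSG-6 was -2.07, 16 listed genes passed with TNFa, and Aldh1a2 with TNFa was 1.05. The share of all genes with that block is not given, so the count has no background beside it. Rarb in wild-type cultures then passed with TSG-6 (0.92, adjusted p = 0.00565) and with TSG-6 and HA (0.71, adjusted p = 0.0267).

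Only 2 arrays for each wild-type treatment, 1 from each culture set, limit what those comparisons can show. Genotype calls share their cultures with the endothelial marker difference.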
